A study of Homo sapiens with 16 samples.

Results

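The genes described here are 10 human genes of lipid droplets and fatty acid oxidation (G0S2, HILPDA, PLIN2, PLIN3, PPARD, ANGPTL4, PDK4, CPT1A, ACADM and ACADVL), among 11963 genes on the U133A array. They were taken by symbol, with all 16 U133A probe sets that the platform annotation assigns to 1 of them alone, whatever their signals. The choice of genes was made with earlier results of these data known. The cells were OVCAR3, an established line from a human ovarian carcinoma and so 1 cell line, and the study asked which of its transcripts respond to 1,25-dihydroxyvitamin D3, the hormonal form of vitamin D that activates the nuclear vitamin D receptor. On U133A arrays, 3 independent experiments gave 4 groups of 3 arrays each, namely ethanol vehicle (labelled 0 h) and 8, 24 and 72 h with the hormone at a labelled dose of 0.1 pM, a unit that the arrays cannot check. Hormone was added at staggered times, so that every culture had the same amount and length of ethanol and was harvested together with the others. An initial set of 4 U95 arrays, an older Affymetrix design, held 1 array for vehicle and 1 for each time, with 9 probe sets for 8 of the genes and none for HILPDA and ANGPTL4.

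Cells store fatty acids as triglyceride in lipid droplets, which are coated by perilipin proteins such as PLIN2 and PLIN3. The lipase ATGL starts the release of these fatty acids, and G0S2 and HILPDA are inhibitors of ATGL. Released fatty acids enter mitochondria through the carnitine shuttle, whose first enzyme is CPT1A, and are shortened by beta-oxidation, whose first step is made by ACADVL on very long chains and by ACADM on medium chains. Fatty acids also activate the PPAR nuclear receptors, among them PPARD. Known PPAR target genes include PLIN2, ANGPTL4, PDK4 and CPT1A, which is not a full list.

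2 of the 10 genes, G0S2 and ACADM, passed the test against vehicle at 1 or more times. Both lie on chromosome 1, on the forward strand, and the 250 bases before their RefSeq starts are shown because they are the promoters of the genes that changed. Capitals mark matches, on either strand, to the 6-base site of nuclear receptors (AGGTCA, its variant AGTTCA, the form GGGTCA and the form GGTTCA) and to the core of the hypoxia response element (ACGTG or its form GCGTG), which reads CACGC where a GCGTG lies on the reverse strand. The sequences are from RefSeq on GRCh38.p14, at chr1:209675162-209675411 for G0S2 and at chr1:75724459-75724708 for ACADM.
G0S2: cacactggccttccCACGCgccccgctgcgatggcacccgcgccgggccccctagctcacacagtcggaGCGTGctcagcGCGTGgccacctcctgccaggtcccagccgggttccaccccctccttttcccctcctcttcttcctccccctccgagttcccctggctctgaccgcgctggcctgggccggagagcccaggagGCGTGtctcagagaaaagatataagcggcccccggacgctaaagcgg
ACADM: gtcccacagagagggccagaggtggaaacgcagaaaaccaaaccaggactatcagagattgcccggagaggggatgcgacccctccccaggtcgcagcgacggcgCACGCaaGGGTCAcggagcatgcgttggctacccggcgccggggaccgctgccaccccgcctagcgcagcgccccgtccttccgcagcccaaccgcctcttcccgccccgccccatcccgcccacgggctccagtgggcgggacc

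The G0S2 window held 4 hypoxia core matches, the nearest 47 bases before the start, and 0 receptor sites. The ACADM window held 1 receptor site, GGGTCA at 138 bases before the start, and 1 hypoxia core match next to it at 145. Promoters were at hand for 9 of the 10 genes, without HILPDA. Receptor sites occurred in 4 of these 9 (ACADM, ACADVL, PDK4 and PLIN2) and in 33.8% of 35116 human promoter windows of the same length. The hypoxia core occurred in 7 of the 9 and in 43.2% of all windows. The 2 spaced pairs of such sites searched, DR3 as bound by the vitamin D receptor and DR1 as bound by PPARs, occurred in 0.0655% and 0.0968% of all windows and in 0 of the 9. A match is a description of the letters only, and sequence outside these windows was not searched.

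Signals below are the authors' MAS5 signals, a brightness per probe set that cannot be compared between probe sets. Array medians lay between 168 and 196, and correlations between U133A arrays ran from 0.958 to 0.976. The lowest median (168) and 10th percentile (13.4) on U133A were those of 72 h replicate 1. Of the 12 arrays, it was also highest for G0S2, PLIN3 and ACADVL and lowest for PLIN2 and ACADM. It was not extreme for HILPDA, CPT1A or PPARD, and the cause was not tested. CYP24A1, the enzyme that degrades the hormone and its classical target, had mean signals of 6185, 7330 and 7430 at 8, 24 and 72 h, against 129 in vehicle (log2 change 5.65, 5.86 and 5.89). All 10 epithelial ovarian carcinoma markers lay above the signal filter, their sum being 44326 to 51929 over the 12 arrays. That sum is weighted to the brightest marker, KRT18 (9184 to 14394). Single markers varied more than the sum, the widest being WT1 (1958 to 4579). Above the filter were 1 of 7 adipocyte markers (CIDEC), 3 of 7 fibroblast markers, 0 of 4 leukocyte markers and 0 of 5 endothelial markers. In such bulk RNA, a change in the share of cells that express a gene cannot be told apart from a change in RNA per cell.

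Changes are given as log2 differences of signal + 15.8, the 10th percentile of all U133A values, and were tested with limma over the 7178 genes whose mean signal passed a filter at the 40th percentile (a signal of about 169). 8 of the 10 genes passed it, while ANGPTL4 and PDK4 lay under it. At 8 h, 1 of the 8 was higher than in vehicle and 0 were lower (adjusted p below 0.05), where 0.766% of all tested genes passed (0.711% higher, 0.0557% lower). At 24 h, 2 were higher and 0 lower, where 4.07% of all genes passed (2.45% higher, 1.62% lower). At 72 h, 1 was higher and 0 were lower, where 6.84% passed (3.86% higher, 2.98% lower). With counts this small, the shares among 8 genes add little to the values of each gene. The median log2 change of the 8 genes was 0.022, 0.0019 and 0.13 at 8, 24 and 72 h, and that of all tested genes was -0.0040, -0.016 and -0.015.

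**Figure D1:**
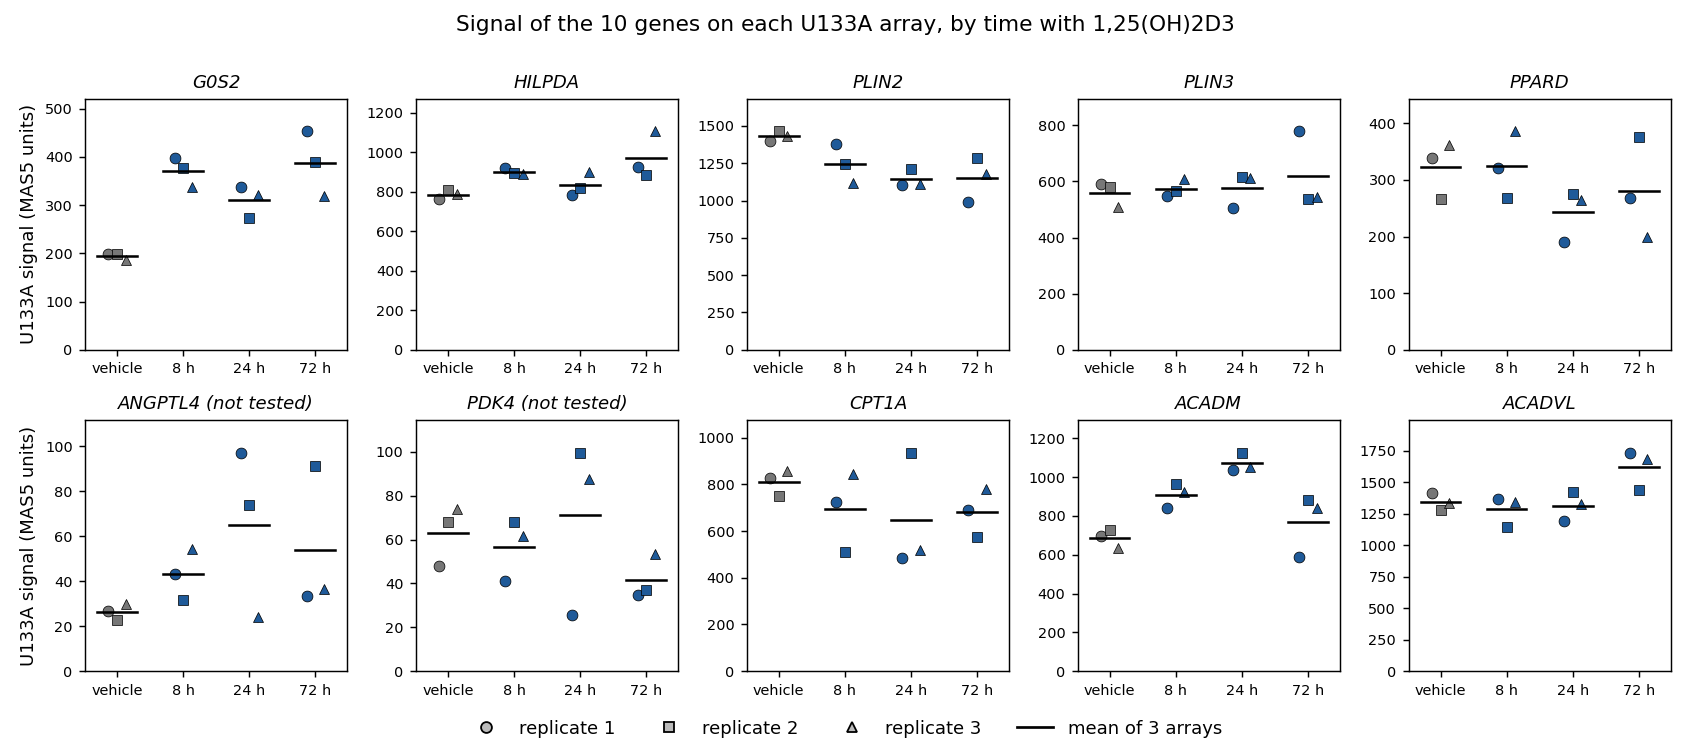
Signal of each of the 10 genes (y axis, MAS5 units, linear and starting at 0, with a scale of its own in each panel) on every U133A array in vehicle and after 8, 24 and 72 h (x axis). Symbols mark replicates 1 to 3 and lines the means of 3 arrays. All 9 treated arrays lay above all 3 vehicle arrays for G0S2 and below them for PLIN2. The share of all tested genes separated in this way was not counted.

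G0S2, the inhibitor of ATGL, was higher at all 3 times. Its signal was 198, 198 and 186 in the 3 vehicle arrays, 397, 376 and 337 at 8 h, 337, 273 and 321 at 24 h, and 453, 389 and 319 at 72 h. Every treated array exceeded every vehicle array, the arrays at 8 and 24 h met at 337, and those at 72 h overlapped both. At 8 h the mean was 370.2 ± 30.4, against 194 ± 6.99 in vehicle (SD, n = 3 each), a log2 change of 0.88 (SE 0.15, 95% interval 0.55 to 1.20, limma adjusted p = 0.0078). This is 1.84-fold on the values with 15.8 added. At 24 h the mean was 310.5 ± 33.2 and the log2 change 0.63 (0.31 to 0.96, 1.55-fold, adjusted p = 0.026). At 72 h the mean was 387 ± 66.9 and the log2 change 0.93 (0.60 to 1.25, 1.90-fold, adjusted p = 0.0010).

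The 3 times with hormone did not separate for G0S2. Its log2 difference was -0.24 for 24 h against 8 h and 0.29 for 72 h against 24 h, and the second had an adjusted p of 0.48 with an interval of -0.03 to 0.62. The call at 72 h held in all 22 other settings in which G0S2 was tested, with adjusted p between 7.7e-04 and 0.0067. The call at 8 h ended without 8 h replicate 1, its brightest array (adjusted p = 0.054). The call at 24 h was lost when any 1 vehicle array, or replicate 1 or 3 of 24 h, was left out (adjusted p up to 0.12), and also with every gene (0.061) or every probe set (0.074) tested, so the rise at 24 h lies close to the threshold.

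HILPDA, the hypoxia-inducible inhibitor of ATGL, did not pass at any time. Its signal was 762, 808 and 789 in vehicle, 920.3, 897 and 889 at 8 h, 782, 817 and 900 at 24 h, and 926, 886 and 1106 at 72 h. All arrays at 8 and 72 h exceeded all vehicle arrays, and those at 24 h overlapped them. Its log2 changes were 0.19, 0.08 and 0.30 at 8, 24 and 72 h (limma adjusted p = 0.89, 0.82 and 0.12), with an interval at 72 h of 0.07 to 0.52.

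Among the droplet coat genes, PLIN2 did not pass at any time in the main fit. Its values were lower in all 9 treated arrays, a separation whose share over all tested genes was not counted. Its signal was 1402, 1463 and 1433 in vehicle, 1380.0, 1244 and 1115 at 8 h, 1107, 1211 and 1110.5 at 24 h, and 993, 1282 and 1177 at 72 h. The highest treated array, at 8 h, lay just under the lowest vehicle array. The log2 change was -0.20, -0.32 and -0.32 (limma adjusted p = 0.89, 0.14 and 0.10), with intervals of -0.56 to -0.09 at 24 h and -0.55 to -0.09 at 72 h. With weights for array quality, an alternative, 24 h passed (adjusted p = 0.041). The second PLIN2 probe set, whose mean signal was 174 in vehicle, had the same sign at each time (-0.30, -0.56 and -0.45) and did not pass either.

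PLIN3, the perilipin that also binds newly formed droplets, had signals of 592, 579 and 510.4 in vehicle, 548, 565 and 609 at 8 h, 505, 616 and 611 at 24 h, and 778, 536 and 544 at 72 h. The groups overlapped at every time, and 72 h replicate 1 was the highest array. The log2 change was 0.04, 0.04 and 0.12 (limma adjusted p = 1.00, 0.95 and 0.71), and the interval at 72 h, -0.18 to 0.43, allows a rise of up to 1.34-fold.

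All treated arrays lay above all vehicle arrays for 3 of the 8 genes at 8 h (G0S2, HILPDA and ACADM), 2 at 24 h (G0S2 and ACADM) and 3 at 72 h (G0S2, HILPDA and ACADVL), against 6.51%, 9.32% and 11.7% of all tested genes. They lay below for 1 gene, PLIN2, at each time, against 6.95%, 11.2% and 12.7% of all tested genes. Because the 8 genes were chosen with earlier results of these data known, these shares are a description and do not test the genes as a set.

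**Figure D2:**
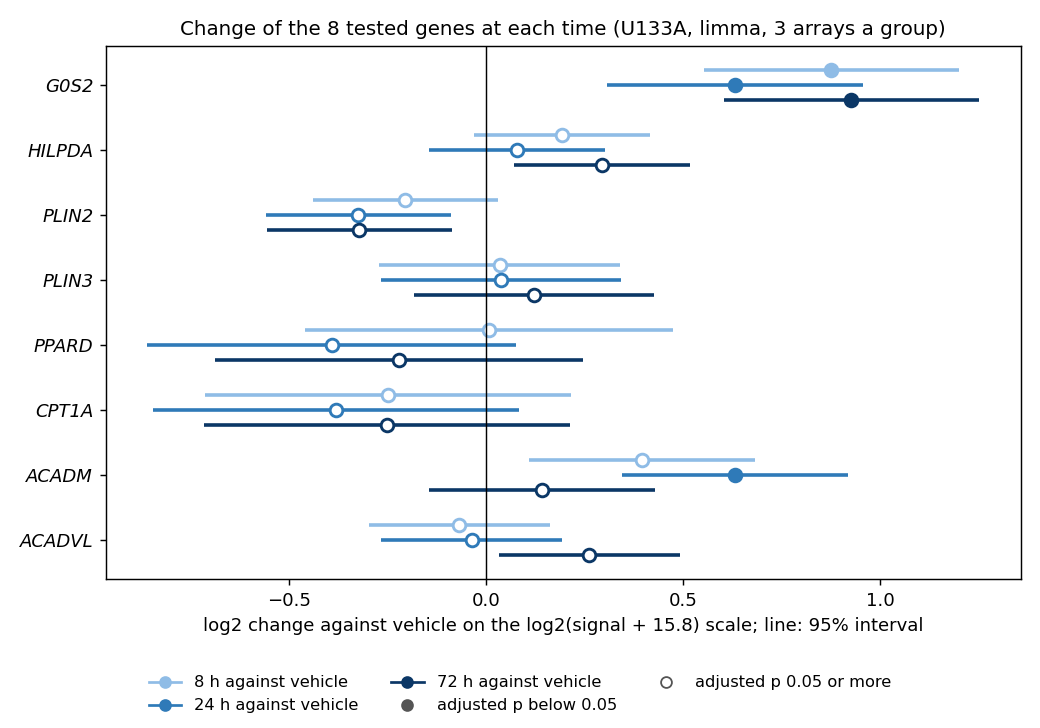
Log2 change against vehicle (x axis, on the log2(signal + 15.8) scale) for the 8 tested genes (y axis) at 8, 24 and 72 h, from limma with 3 arrays a group. Lines are 95% intervals and filled points passed at an adjusted p below 0.05, which are the 3 points of G0S2 and the 24 h point of ACADM at 0.63.

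ACADM, the medium-chain acyl-CoA dehydrogenase, rose at 24 h. Its signal was 699, 727 and 634 in vehicle, 841, 965 and 920.3 at 8 h, 1038, 1125 and 1050.4 at 24 h, and 589, 880.3 and 840.1 at 72 h. The 8 h and 24 h arrays all exceeded the vehicle arrays and did not overlap each other, and 72 h replicate 1 was the lowest of all 12 arrays. At 24 h the mean was 1071 ± 46.9, against 686 ± 47.7 in vehicle (SD, n = 3 each), a log2 change of 0.63 (SE 0.13, 95% interval 0.35 to 0.92, 1.55-fold, limma adjusted p = 0.011). The call ended without vehicle replicate 3, the dimmest vehicle array (adjusted p = 0.064), and held in the other 22 of 23 settings.

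The other times did not pass for ACADM. At 8 h the mean was 909 ± 62.8 and the log2 change 0.40 (0.11 to 0.68, limma adjusted p = 0.35). At 72 h the mean was 769.8 ± 158 and the log2 change 0.14 (-0.14 to 0.43, adjusted p = 0.63), or 0.32 without 72 h replicate 1 (adjusted p = 0.12). The 72 h value minus the 24 h value was -0.49 (-0.77 to -0.20), with an unadjusted p of 0.0024 and an adjusted p of 0.21, so a fall after 24 h did not pass over all genes tested. Between times, 0 of the 8 genes passed in limma for 24 h against 8 h, 72 h against 24 h or 72 h against 8 h, where 0.641%, 0.153% and 2.52% of all tested genes did. At an unadjusted p below 0.05 these numbers were 0, 2 (1 higher, 1 lower) and 1 (higher), where 8.26%, 11.7% and 14.1% of all tested genes passed.

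An F test over the 3 times called G0S2 (limma adjusted p = 0.0031) and ACADM (0.032) and no other of the 8, where 5.21% of all tested genes passed. The F call of G0S2 held in all 22 settings. That of ACADM held in 12 of 23 (highest adjusted p = 0.10) and ended without any 1 vehicle or 24 h array. It also ended without 8 h replicate 2 or 3, with every gene or every probe set tested, and with eBayes without trend.

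ACADVL, which oxidises very long chains, had signals of 1414, 1280 and 1334 in vehicle, 1363, 1142 and 1345 at 8 h, 1188, 1420.4 and 1328 at 24 h, and 1732, 1440.3 and 1679.9 at 72 h. The 8 h and 24 h arrays overlapped the vehicle arrays, and all 3 arrays at 72 h exceeded them. For ACADVL the log2 change was -0.07, -0.04 and 0.26 (limma adjusted p = 1.00, 0.93 and 0.18), with an interval at 72 h of 0.03 to 0.49. Over the 12 arrays the log2 values of ACADVL and ACADM had a Pearson correlation of -0.45, a description of arrays that share the same time course.

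CPT1A, the entry enzyme of the carnitine shuttle, had signals of 826, 749 and 857 in vehicle, 725, 509.9 and 846 at 8 h, 486, 936 and 518 at 24 h, and 691, 576 and 782 at 72 h. The groups overlapped at each time, and at 24 h replicate 2 stood far above the other arrays. CPT1A had log2 changes of -0.25, -0.38 and -0.25 (limma adjusted p = 1.00, 0.48 and 0.59), and the interval at 24 h ran from -0.84 to 0.08. The 24 h change was -0.67 without 24 h replicate 2 (adjusted p = 0.056) and -0.21 without 24 h replicate 1 (0.83). The other 3 CPT1A probe sets had changes of both signs, none of which passed when every probe set was tested (0.247%, 1.41% and 2.58% of the 22283 probe sets passed at 8, 24 and 72 h).

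PPARD, the nuclear receptor, had signals of 338, 266 and 362 in vehicle, 320.5, 269 and 385 at 8 h, 189.8, 274 and 265 at 24 h, and 269, 375 and 199 at 72 h. The groups overlapped at each time. PPARD had log2 changes of 0.01, -0.39 and -0.22 (limma adjusted p = 1.00, 0.46 and 0.65), with an interval at 24 h of -0.86 to 0.08. The other 2 PPARD probe sets, with vehicle means of 151 and 51.6, had negative changes at all 3 times (-0.43, -0.73 and -0.17, and -0.48, -0.49 and -0.94), none past the test.

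The PPAR targets that lay under the signal filter were ANGPTL4, a secreted inhibitor of lipoprotein lipase, and PDK4, the kinase that switches off pyruvate dehydrogenase. ANGPTL4 had signals of 26.6, 22.9 and 29.6 in vehicle, 43.4, 31.8 and 54.4 at 8 h, 97.0, 73.9 and 24.2 at 24 h, and 33.4, 91.2 and 36.7 at 72 h. All arrays at 8 and 72 h exceeded the vehicle arrays, while at 24 h replicate 3 did not. With every probe set tested, its log2 change was 0.47, 0.81 and 0.63 (limma adjusted p = 1.00, 0.54 and 0.55). At these signals 15.8 is a large part of the value, so the figures understate the ratio of the signals. That ratio is itself uncertain, since ANGPTL4 lay far under the filter with a log2 SD within groups of 0.52. The share of genes under the filter whose arrays separate from vehicle was not counted. PDK4 had signals of 47.9, 67.9 and 73.8 in vehicle, 41.2, 67.8 and 61.5 at 8 h, 25.8, 99.5 and 87.8 at 24 h, and 34.6, 37.0 and 53.6 at 72 h, and overlapped vehicle at every time. Its log2 change was -0.13, 0.02 and -0.46 (adjusted p = 1.00, 1.00 and 0.69).

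The U95 arrays give values beside these, with 1 array a group and so no test, on a scale that was set separately. The 1.5-fold size used for description was passed, either way, by 7.05%, 10.8% and 14.1% of 4937 U95 genes above their filter at 8, 24 and 72 h. It was passed in 5 of the 24 ratios of the 8 genes, 3 of G0S2 and 2 of PPARD. G0S2 and PDK4 lay under the U95 filter and so outside that background, and among the other 6 genes the 2 ratios of PPARD were past it. G0S2 had signals of 23.9 in vehicle and 336, 144 and 236 at 8, 24 and 72 h. Of the treated times, 24 h was lowest on both array types, while the highest was 8 h on U95 and 72 h on U133A. The log2 ratios, 3.21, 2.07 and 2.73 with the U95 10th percentile of 13.9 added, depend on that number since the vehicle signal is near it, and were 3.76, 2.54 and 3.25 with 1 added and 2.30, 1.33 and 1.88 with 4 times it.

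ACADM had U95 signals of 953 in vehicle and 1239, 1112 and 1103 at 8, 24 and 72 h, log2 ratios of 0.37, 0.22 and 0.21. The highest treated array was thus at 8 h, and at 24 h on U133A. PPARD, through a probe set of the same name on both types, had 643 in vehicle and 487, 391 and 376, log2 ratios of -0.39, -0.70 and -0.75. Its change at 8 h on U133A was 0.01. PLIN2 had 995 in vehicle and 759, 859 and 1004, and at 72 h its log2 ratio was 0.01, against -0.32 on U133A.

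The remaining genes, each by its brightest probe set, stayed within 1.5-fold on the U95 values with 13.9 added. ACADVL had 554 in vehicle and 576, 749 and 831 (0.05, 0.42 and 0.57), against -0.07 and -0.04 on U133A at 8 and 24 h. CPT1A had 182 in vehicle and 247, 233 and 151 (0.41, 0.34 and -0.25), also of opposite sign to U133A at 8 and 24 h. For PLIN3 the brighter of its 2 probe sets had 794 in vehicle and 844, 929 and 796, while the dimmer read 72.1 at 72 h, against 199 in vehicle. PDK4, under the U95 filter, had 3.72 in vehicle and 7.39, 5.82 and 8.24, signals below the number added, so that with 1 added in its place the log2 ratios at 8 and 72 h were 0.83 and 0.97 (0.27 and 0.33 with 13.9).

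**Figure D3:**
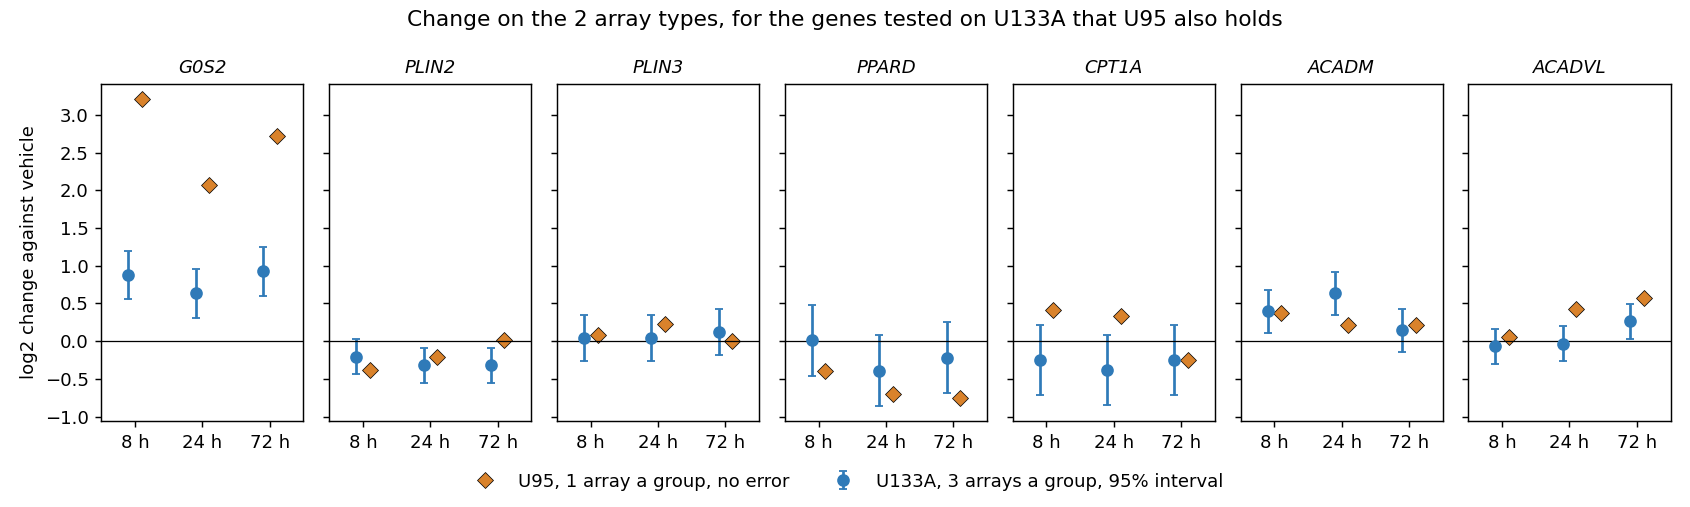
Log2 change against vehicle (y axis) at 8, 24 and 72 h (x axis) for the 7 genes tested on U133A that U95 also holds. Circles are U133A changes with 95% intervals (3 arrays a group) and diamonds are single U95 ratios without error, each on values with the 10th percentile of its own array type added. G0S2 lies above 0 throughout on both types.

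For other genes of the same pathways, 7 lists of 122 genes were written, chosen with earlier results of these data known, of which 91 were on the array and 59 passed the filter. At each of the 3 times 1 of the 59 was higher and 0 were lower (1.69%), against 0.766%, 4.07% and 6.84% of all tested genes in either direction at 8, 24 and 72 h. The median log2 change of the 59 was 0.0054, -0.032 and -0.0020. None passed at any time among 13 tested genes of the droplet coat and lipolysis, 14 of the carnitine shuttle and mitochondrial oxidation, 7 of peroxisomal oxidation, 9 of pyruvate dehydrogenase and its regulators, 7 of fatty acid uptake and activation, and 3 further PPAR targets. At an unadjusted p below 0.05, 2 of the 59 were higher and 3 lower at 8 h, 3 and 3 at 24 h, and 7 and 2 at 72 h. Of all tested genes, 3.71% were higher and 2.67% lower at that threshold at 8 h, 7.23% and 7.17% at 24 h, and 9.78% and 10.3% at 72 h.

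The gene that passed, among 6 tested PPAR and RXR receptors and their coregulators, was NRIP1, a coregulator that represses nuclear receptor targets and in mouse adipose tissue restrains oxidative genes. Its signal was 689, 843 and 788 in vehicle, 1256, 1271 and 1768 at 8 h, 1661, 1616 and 2491 at 24 h, and 1946, 1419.9 and 1982 at 72 h. Every treated array exceeded every vehicle array, a separation whose share over all tested genes was not counted. The log2 change was 0.86, 1.27 and 1.18 (limma adjusted p = 0.030, 4.3e-04 and 5.2e-04). The 8 h call ended without any 1 of the vehicle or 8 h arrays (adjusted p up to 0.19) and in 5 other settings.

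By the rule for the other lists, the gene with the lowest F test p of each may be named, and 2 of these are described at 72 h. The rest did not pass at 72 h either. They were SPART (log2 change 0.59, limma adjusted p = 0.17), DLAT (-0.26, 0.17), VLDLR (0.16, 0.40) and UCP2 (-0.09, 0.70). ACOX3, a peroxisomal acyl-CoA oxidase, had a mean of 297 ± 27.2 at 72 h, against 191 ± 19.9 in vehicle (SD, n = 3 each; log2 change 0.59, limma adjusted p = 0.052, below 0.05 in 6 of 21 other settings and up to 0.19 in the rest). DECR1, the mitochondrial reductase needed for unsaturated fatty acids, had 483 ± 123 at 72 h, against 633 ± 36.1 in vehicle (-0.41, adjusted p = 0.12). Leaving out 1 array at a time gave DECR1 changes from -0.59 (adjusted p = 0.012, without 72 h replicate 2) to -0.24 (0.38, without 72 h replicate 1), and it passed in 1 of 23 settings. ACAA2, the thiolase of the last step of mitochondrial oxidation, was chosen after its values were seen, for its log2 change of 1.08 at 24 h and 1.13 at 72 h (adjusted p = 0.18 and 0.11). Its vehicle arrays read 85.1, 490.2 and 368, and without vehicle replicate 1 the changes were 0.37 and 0.42. Without vehicle replicate 2 they were 1.54 and 1.58 and passed (limma adjusted p = 0.034 and 0.021). Its other probe set had negative changes at both times (-0.43 and -0.02).

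**Figure D4:**
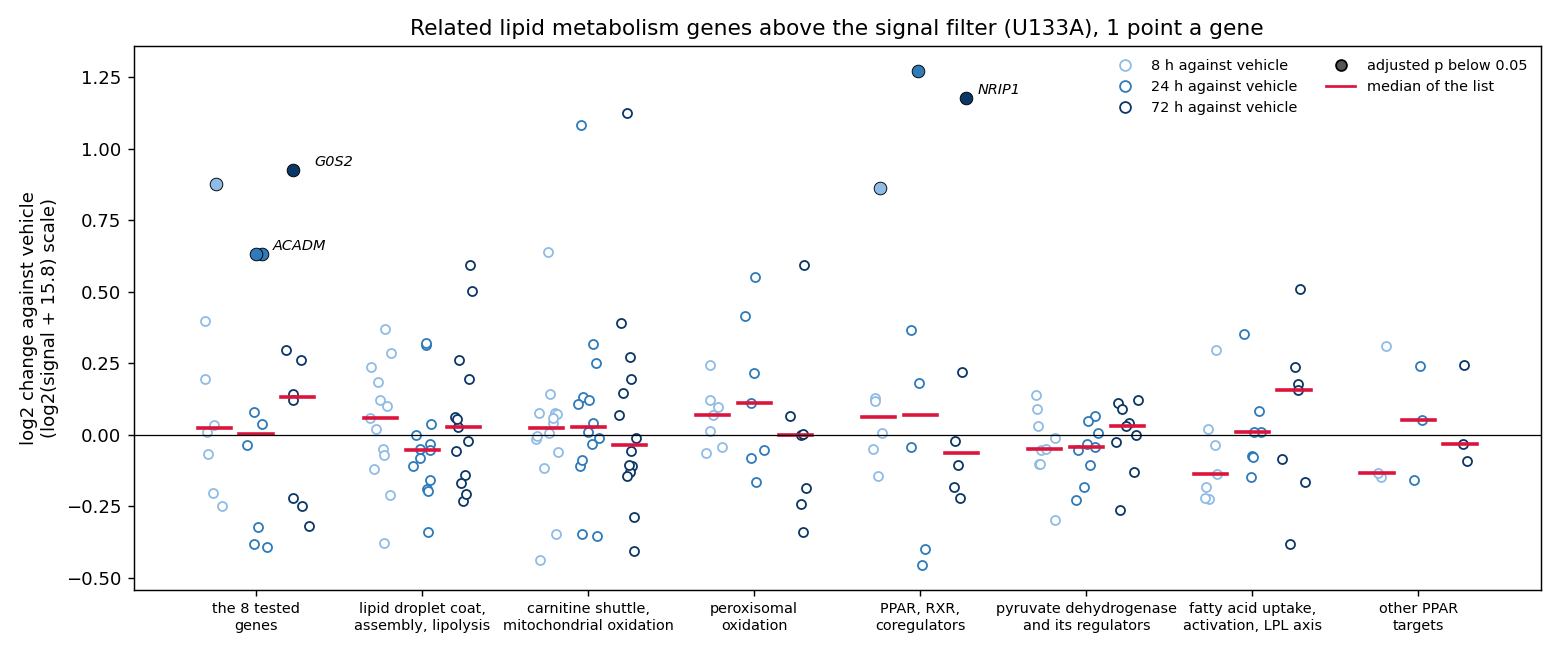
Log2 change against vehicle (y axis, log2(signal + 15.8) scale) for the 8 genes and for the tested genes of 7 related lists (x axis), 1 point a gene at 8, 24 and 72 h. Red lines are medians and filled points passed at an adjusted p below 0.05. The filled points are G0S2 at 3 times, ACADM at 24 h (beside G0S2 at 0.63) and NRIP1 at 3 times.

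Over the 12 arrays, the tested genes outside the list with log2 values most like those of G0S2 were TGIF1 (Pearson r = 0.91), TRIM8 (0.90) and FUCA1 (0.90). Those most like ACADM were ITPR3 (0.88), ABCC1 (0.88) and METTL18 (0.87). These are the highest correlations found over arrays that share a time course and are given as a description. Among the 8 genes, the lowest correlation was between G0S2 and PLIN2 (-0.68) and the highest between G0S2 and HILPDA (0.59), while G0S2 and ACADM had 0.28.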

How the data were processed

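The authors deposited 1 linear intensity for each probe set, made with MAS5 (no version given) per the submitters' processing notes. The 2% trimmed mean was 500.2 on every array, so the values were used as the authors scaled them. Detection calls were not used here. In R 4.3.3, U133A values were taken as log2(value + 15.833) and U95 values as log2(value + 13.87), each number the 10th percentile of its array type. Each gene was represented by its probe set of highest mean, and genes under the 40th percentile were left out of the test. limma 3.58.1 (lmFit, eBayes with trend) was fitted to all 12 U133A arrays with 8 residual degrees of freedom, and p-values were adjusted by Benjamini-Hochberg over 7178 genes, with a threshold of 0.05. A self-test on simulated counterparts of the 24 h comparison (7178 genes) recovered 50% of changes of log2 0.5 and 89% of log2 1. Of its calls, 6.71% fell on genes simulated without a change. The 4 U95 arrays had no test. The number of arrays limits the precision. Same-number arrays deviated together, with all 18 correlations positive (0.052 to 0.26), and all 3 pairs passed 0.1 in 2 of 6 comparisons. By that cut, a choice made here, the main fit has no replicate block and leaves this shared deviation in its error. A fit with the block is given below. 23 other settings were tried, including array weights with statmod 1.5.0. All members were named, with the called genes of each pathway list (or its gene with the lowest F test p), CYP24A1, and the 3 genes most like each member that passed the F test. Members, pathway lists and markers were chosen with earlier results of these data known.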

Additional observations from a re-analysis of the deposited data

How the results depend on the processing

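Of 540 log2 changes of the tested genes under the alternative settings, 530 kept their direction where called and their side of the threshold. Changes that were never called count as kept here, and 13 of the 540 differed in sign. The G0S2 calls held in 21 of 22 settings at 8 h, 15 of 22 at 24 h and 22 of 22 at 72 h. The ACADM call at 24 h held in 22 of 23. Among the counts of members past the threshold, dropping the filter or testing every probe set left 1 at 24 h and 1 in the F test. A filter at the 60th percentile left out G0S2, which gave 0 at 8 h, 1 at 24 h, 0 at 72 h and 1 in the F test. eBayes without trend left 1 in the F test. Leaving out 1 array at a time gave 0 to 1 at 8 h, 0 to 2 at 24 h, 1 to 1 at 72 h, 1 to 2 in the F test and 0 to 0 between times. With a replicate block the members called did not change (G0S2 adjusted p = 0.0055, 0.017 and 7.7e-04 at 8, 24 and 72 h, and ACADM 0.0050 at 24 h in limma), while the calls over all genes were 84, 420 and 653, against 55, 292 and 491 without it. Where a call ended, the cause was not tested. In the self-test, 50% of changes of log2 0.5 (about 1.4-fold) were recovered at 3 arrays a group. That figure is for simulated 24 h data with independent arrays, in which fewer genes were changed than the 292 called here. Recovery in the real data may differ, and recovery at 8 and 72 h was not simulated.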
